A study of Mus musculus with 9 samples.

Results

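The primary granule genes are the 8 genes Mpo, Elane, Prtn3, Ctsg, Prss57, Ms4a3, Ctsc and Serpinb1a, taken from the gene entries of each library by their Entrez numbers. All 8 were found among the 27179 entries, and all 8 passed the filter on low counts that left 12004 entries for testing. They were measured in AML246, a leukaemia line from C57BL/6 mice that is p53-/- and makes a short hairpin RNA directed at PU.1, a transcription factor of myeloid cells whose gene is Spi1. All cells were grown with IL3, and clones 1, 2 and 4 were each founded by 1 cell of this line. Washed cells had been in doxycycline for 14 days and then without it for 14 days, and were sorted as GFP-high, with the hairpin made. Doxycycline cells had been in the drug for 14 days and were sorted as GFP-off, with the hairpin silenced. Untreated cells never met the drug and were sorted as GFP-high. Each clone gave 1 library per condition, so each group holds 3 libraries and the design 9. The drug, the sort on GFP and the hairpin all switch at once here and cannot be told apart.

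Primary granules, also called azurophil granules, are packed by promyelocytes, an early stage of the neutrophil lineage, and later discharge onto swallowed microbes. Myeloperoxidase, the heme enzyme encoded by Mpo, makes hypochlorous acid. Elastase (Elane), proteinase 3 (Prtn3) and cathepsin G (Ctsg) are serine proteases stored as active enzymes, and Prss57 encodes a further granule serine protease that cuts after arginine. Ctsc encodes dipeptidyl peptidase I, which trims the stored serine proteases into active form, and Serpinb1a encodes a cytosolic inhibitor of them. Ms4a3 encodes a tetraspan membrane protein of granulocyte and monocyte progenitors. PU.1 is known to bind purine-rich sites in promoters of several granule genes.

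The promoters of the 4 genes whose levels moved together below are shown because the hairpin is directed against PU.1. Each is the 250 bases before the RefSeq start on GRCm38.p6, read on the strand of the gene from 5′ to 3′. Capitals mark every match, on either strand, to GAGGAA, the core of the PU box, or to the longer GAGGAAGT that contains it. The windows are chr11:87793534-87793783 (plus strand) for Mpo, chr10:79886062-79886311 (plus strand) for Elane, chr10:79879417-79879666 (plus strand) for Prtn3 and chr14:56102575-56102824 (minus strand) for Ctsg.
Mpo: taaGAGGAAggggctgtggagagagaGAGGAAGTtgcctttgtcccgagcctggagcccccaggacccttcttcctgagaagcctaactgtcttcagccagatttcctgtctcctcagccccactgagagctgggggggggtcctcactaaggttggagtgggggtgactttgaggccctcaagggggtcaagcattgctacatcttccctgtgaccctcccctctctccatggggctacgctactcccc
Elane: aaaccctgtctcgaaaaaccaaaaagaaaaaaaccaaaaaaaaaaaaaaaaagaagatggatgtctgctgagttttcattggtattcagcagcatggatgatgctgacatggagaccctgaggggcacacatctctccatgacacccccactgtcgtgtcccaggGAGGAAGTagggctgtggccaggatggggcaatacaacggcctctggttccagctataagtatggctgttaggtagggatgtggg
Prtn3: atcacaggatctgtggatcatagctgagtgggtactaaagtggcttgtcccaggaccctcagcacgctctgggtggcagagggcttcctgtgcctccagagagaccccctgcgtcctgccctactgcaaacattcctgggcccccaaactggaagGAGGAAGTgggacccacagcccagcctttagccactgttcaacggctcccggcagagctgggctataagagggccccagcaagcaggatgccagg
Ctsg: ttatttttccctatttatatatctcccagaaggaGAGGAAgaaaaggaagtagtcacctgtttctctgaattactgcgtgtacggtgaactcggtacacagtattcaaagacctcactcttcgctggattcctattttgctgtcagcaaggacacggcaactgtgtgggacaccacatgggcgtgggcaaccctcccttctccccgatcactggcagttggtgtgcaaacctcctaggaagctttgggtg
GAGGAAGT began 224 bases before the start of Mpo, 85 bases before Elane and 95 bases before Prtn3. The Ctsg window held GAGGAA 216 bases before the start but not GAGGAAGT. Of the other members, the Ctsc window held GAGGAAGT on the opposite strand and the Ms4a3 window held neither form, while Prss57 and Serpinb1a are named only. Of 32851 promoter windows of the same length in the table, 23.3% held GAGGAA and 2.44% held GAGGAAGT on either strand. The MYB letters AACGG occurred in the Elane and Prtn3 windows, 50 and 55 bases before the start, and in 14.5% of all windows. The RUNX letters TGTGGT occurred in the Ctsg window and in 14% of all windows, and the C/EBP letters TTNNGNAA in the Ms4a3 window and in 36.8%. Both strands were searched for each motif, and a match describes letters, not binding.

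The libraries held 7408118 to 9803258 counts each. A single entry with no symbol in the RefSeq table took 22% of the counts of untreated clone 1, against 0.153% to 1.64% in the other 8 libraries. Washed clone 1 also stood apart for the genes described here, and results that rest on it are given with and without it. The members took 0.427%, 0.048% and 0.0461% of the counts of washed clones 1, 2 and 4. Their share was 0.0886%, 0.0258% and 0.0455% in doxycycline and 0.0623%, 0.0545% and 0.0504% in untreated cells. The leukocyte gene Ptprc (CD45) averaged 0.623 CPM in washed, 38.4 CPM in doxycycline and 1.55 CPM in untreated cells, while the leukocyte gene Laptm5 averaged 814, 1457 and 923 CPM. CPM are counts set against the library total after scaling by TMM factors, per 1e6 counts.

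Spi1, the target of the hairpin, stood at 52, 40.6 and 23.9 CPM in washed clones 1, 2 and 4. It stood at 197, 191 and 156 CPM in doxycycline and at 48.1, 46.6 and 23.7 CPM in untreated cells. The 3 doxycycline libraries held the highest values, and washed and untreated libraries overlapped.

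Mpo (Entrez 17523, chromosome 11, 87793784 to 87804412 on GRCm38) had the widest range of the 8 genes. It stood at 1720.4, 65.1 and 50 CPM in washed clones 1, 2 and 4, at 27.7, 1.06 and 0.872 CPM in doxycycline, and at 82.7, 50.5 and 80 CPM in untreated cells. Every doxycycline library was below every washed and every untreated library, and washed clone 1 was 20.8 times the highest of the other 8. In the GENCODE M21 annotation 512 of its 3424 exon bases also belong to Gm11505 on the opposite strand, and the use of strand in counting is not given in the sources used here. Its values in doxycycline clones 2 and 4 rest on 8 and 9 counts, with exact 95% Poisson intervals of 3.45 to 15.8 and 4.12 to 17.1 counts. These intervals cover counting error only. Within clones 1, 2 and 4 the doxycycline level was 2.99, 47.7 and 91.8 times below the untreated level. The washed level was 62.1, 61.5 and 57.4 times the doxycycline level.

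Elane (Entrez 50701, chromosome 10, 79886312 to 79888216) was also lowest in doxycycline. Its CPM were below those of Mpo in every library except doxycycline clones 2 and 4. It stood at 203, 19.6 and 38.4 CPM in washed clones 1, 2 and 4, at 19, 4.5 and 6.4 CPM in doxycycline, and at 66.4, 30.4 and 28.7 CPM in untreated cells. The doxycycline libraries lay below all others, although doxycycline clone 1 came within 1 CPM of washed clone 2. Elane was 3.5, 6.75 and 4.48 times lower in doxycycline than untreated within clones 1, 2 and 4, and 10.7, 4.36 and 6.01 times higher after washing than in doxycycline.

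Prtn3 (Entrez 19152, chromosome 10, 79879667 to 79883174), whose end lies 3138 bases before Elane, had the smallest range of the 4. It stood at 300, 77.6 and 70.2 CPM in washed clones 1, 2 and 4, at 74.2, 43.9 and 46.9 CPM in doxycycline, and at 141, 97.7 and 76.2 CPM in untreated cells. The doxycycline and untreated groups did not overlap. The washed and doxycycline groups did, because doxycycline clone 1 exceeded washed clone 4.

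Ctsg (Entrez 13035, chromosome 14, 56099885 to 56102574) had the highest mean of the 8 per kilobase of transcript in each group. In doxycycline it led in no single library. Prss57 stood above it in clone 1, at 108 against 103 CPM per kilobase. Prtn3 did so in clones 2 and 4, at 45.2 and 48.3 against 25.9 and 45.4. Ctsc also stood above Ctsg in these clones, at 43.7 and 63.3, and led in clone 4. Ctsg stood at 952, 119 and 110.2 CPM in washed clones 1, 2 and 4, at 103, 25.9 and 45.5 CPM in doxycycline, and at 274, 138 and 120.1 CPM in untreated cells. Each doxycycline library was below every library of the other groups. Ctsg was 2.65, 5.3 and 2.64 times lower in doxycycline than untreated within clones 1, 2 and 4.

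Prss57, Ms4a3 and Ctsc did not share that dip. Prss57 (Entrez 73106, chromosome 10, 79781474 to 79794684) stood at 206, 57.4 and 35.4 CPM in washed clones 1, 2 and 4, at 289.6, 66.5 and 87.1 CPM in doxycycline, and at 87.9, 69.9 and 40.3 CPM in untreated cells. Its highest library was doxycycline clone 1, its doxycycline level was 3.3, 0.952 and 2.16 times the untreated level within clones 1, 2 and 4, and the groups overlapped. In the GENCODE M21 annotation 1157 of its 2843 exon bases also belong to Fstl3 on the opposite strand, with the same gap in the sources on strand. Fstl3 averaged 4.47 CPM in washed, 4.29 CPM in doxycycline and 5.43 CPM in untreated cells.

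Ms4a3 (Entrez 170813, chromosome 19, 11629499 to 11640851) was the least abundant member in washed and untreated cells. It stood at 23.9, 1.1 and 1.84 CPM in washed clones 1, 2 and 4, at 16.5, 1.98 and 4.94 CPM in doxycycline, and at 3.12, 0.504 and 0.865 CPM in untreated cells. In each clone the untreated library was the lowest, but clones differed so much that the groups overlapped. The untreated values rest on 17, 4 and 7 counts. Within clones 1, 2 and 4 the doxycycline level was 5.29, 3.94 and 5.72 times the untreated level.

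Ctsc (Entrez 13032, chromosome 7, 88278024 to 88315861) varied least. It stood at 110.3, 101 and 89.8 CPM in washed clones 1, 2 and 4, at 152, 108 and 157 CPM in doxycycline, and at 117, 101 and 87.5 CPM in untreated cells. It was highest in doxycycline in each clone, by 1.29, 1.07 and 1.79 times over untreated cells. Serpinb1a (Entrez 66222, chromosome 13, 32842092 to 32853206) stood at 115, 48.6 and 73.7 CPM in washed, 85.1, 29.5 and 57.1 CPM in doxycycline and 74.5, 61.5 and 67.7 CPM in untreated clones 1, 2 and 4. Doxycycline was its lowest condition in clones 2 and 4 and not in clone 1. Its GENCODE transcripts match those of the paralog Serpinb1c over 1392 bases at 87.9% identity and of Serpinb1b over 1321 bases at 89.3%. The files hold 21 counts for Serpinb1c and 7 for Serpinb1b over all 9 libraries, against 223 to 1249 counts in each library for Serpinb1a.

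**Figure D1:**
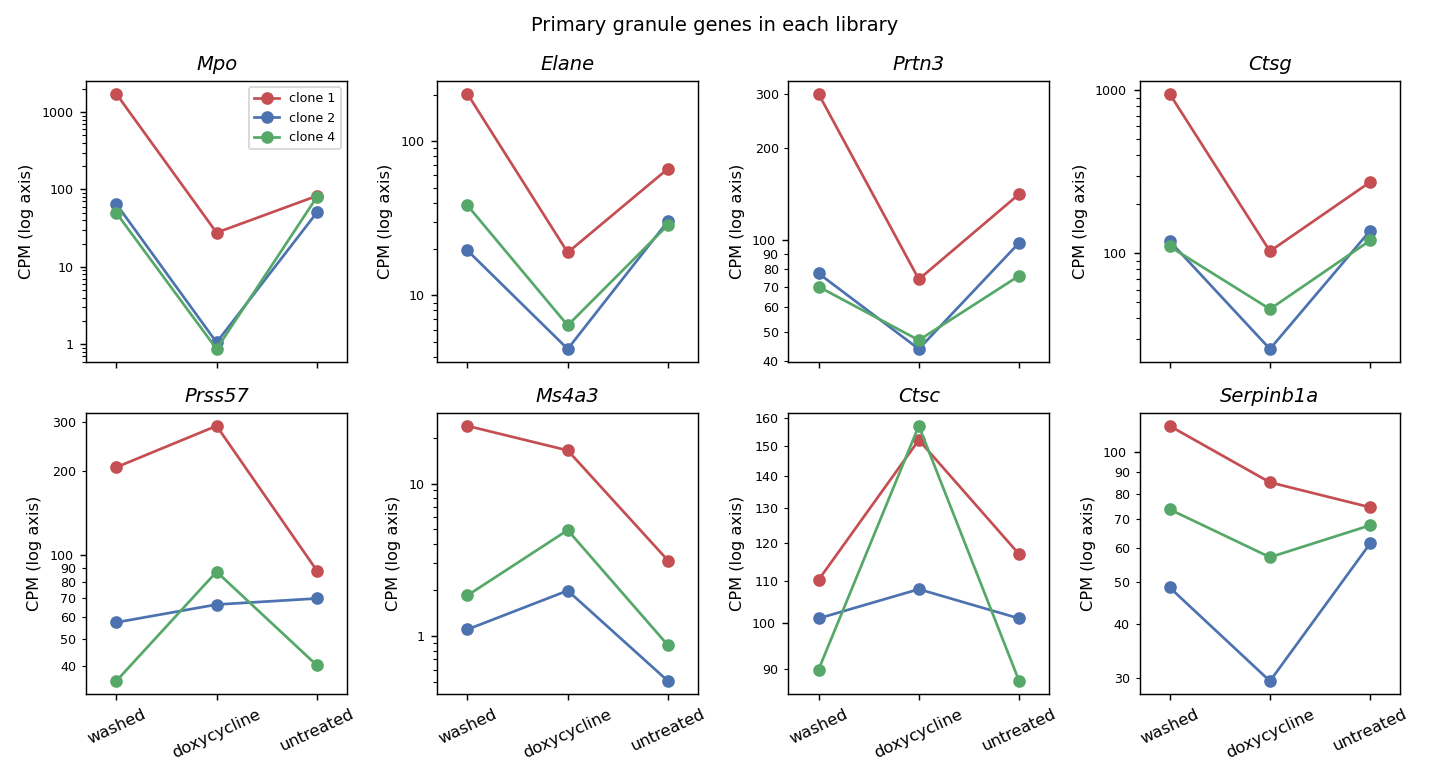
CPM of each of the 8 genes (log axis, scale differs by panel) in the washed, doxycycline and untreated libraries, with 1 line per clone. Mpo, Elane, Prtn3 and Ctsg dip in doxycycline in every clone, Ms4a3 and Ctsc are lowest there in none, and clone 1 is the top line at all 3 conditions for every gene except Ctsc.

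Set against gene length, the order of the members in doxycycline differed from that in untreated cells, with Mpo last, and the order in washed cells depended on washed clone 1. Mean CPM per kilobase in washed cells was 393 ± 483 for Ctsg, 240.3 ± 377 for Mpo, 154 ± 134 for Prtn3 and 94.7 ± 109.9 for Elane (SD, n = 3). In doxycycline it was 58 ± 40 for Ctsg, 56.6 ± 17.2 for Prtn3, 10.8 ± 8.55 for Elane and 3.88 ± 6.06 for Mpo. In untreated cells it was 177 ± 83.8 for Ctsg, 108 ± 33.9 for Prtn3, 45.4 ± 23.2 for Elane and 27.9 ± 7.02 for Mpo. Mpo had the lowest mean of the 8 in doxycycline. Its place after Ctsg in the washed means rests on washed clone 1 alone: in washed clones 2 and 4 Mpo stood at 25.6 and 19.7 CPM per kilobase, below Ctsg at 119 and 110, Prtn3 at 79.8 and 72.3 and Ctsc at 40.7 and 36.3. The SD in washed cells exceeded the mean for Ctsg, Mpo, Elane and Ms4a3 (8.85 ± 12.8 CPM per kilobase), with washed clone 1 as the high library. Prss57 averaged 37 ± 34.5, 54.9 ± 45.8 and 24.5 ± 8.92 CPM per kilobase in washed, doxycycline and untreated cells, and Ctsc 40.6 ± 4.14, 56.1 ± 10.8 and 41.2 ± 6.03. In doxycycline the means of Ctsg, Prtn3, Ctsc and Prss57 differed from each other by less than the SD of any of them.

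The first comparison asked how the genes differ when doxycycline silences the PU.1 hairpin. Mpo, Elane, Prtn3 and Ctsg were lower in doxycycline in 3 of 3 clones (31.8% of all 12004 tested genes were) with groups that did not overlap (18.5% of all genes). Ms4a3 and Ctsc were higher in 3 of 3 clones, as were 32.1% of all genes, with overlap. By the quasi-likelihood test of edgeR with Benjamini-Hochberg adjustment, 0 of the 8 had an adjusted p under 0.05, which 10.9% of all tested genes had (6.57% higher and 4.35% lower). At an unadjusted p under 0.05 stood 2 of the 8, Elane and Ctsc, against 27.2% of all genes. DESeq2 called 1, Elane, beside 17.8% of all genes, and limma voom called 0, beside 9.48%.

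Clones 1, 2 and 4 are the same cell lines in each condition, so clone was also fitted as a block. That fit called 4 of the 8 genes, against 24.8% of all tested genes (13.0% higher and 11.7% lower). Mpo fell, with a log2 fold change of -4.82 ± 1.02 SE (edgeR adjusted p = 0.0125), against -2.82 ± 1.54 without the block (adjusted p = 0.273). Elane fell by 2.3 on the log2 scale (SE 0.38, edgeR adjusted p = 0.00516), against -2.05 ± 0.87 without the block (adjusted p = 0.168). Ctsg fell likewise, with -1.77 ± 0.41 (edgeR adjusted p = 0.0184) and -1.6 ± 0.86 without the block (adjusted p = 0.263).

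Ms4a3 rose in doxycycline in the fit with the block (log2 fold change 2.42 ± 0.49 SE, edgeR adjusted p = 0.0112) and missed the threshold without it (2.46 ± 1.29, adjusted p = 0.255). Prtn3 just missed the threshold with the block (-0.93 ± 0.29 SE, edgeR adjusted p = 0.0505, and 0.303 without it). Prss57 (0.9 ± 0.34, adjusted p = 0.09), Ctsc (0.45 ± 0.17, adjusted p = 0.0882) and Serpinb1a (-0.38 ± 0.22, adjusted p = 0.248) did not pass edgeR's test with the block either. Serpinb1a changed sign with scaling by library size alone and no block (0.04). The 4 blocked calls depend on the clones present, as did the number of calls over all genes. Without clone 4 none of them passed, beside 2.98% of all genes with the block. Without clone 2 only Elane did (edgeR adjusted p = 0.0324), beside 5.16%. Without clone 1, Mpo, Elane, Prtn3 and Ctsg passed even with no block, with edgeR adjusted p of 0.00168, 0.0171, 0.0386 and 0.0151. Of all genes 7.96% passed in that fit.

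The second comparison asked whether the levels return once doxycycline is removed. Mpo, Elane and Ctsg were higher in washed than in doxycycline cells in every clone with no overlap of the groups, as were 11.8% of all tested genes, and Prtn3 and Serpinb1a were higher in every clone with overlap. Of all genes, 28.1% were higher in 3 of 3 clones and 27.5% lower, as Prss57 and Ctsc were. None of the 8 passed edgeR's adjusted p of 0.05 without the block, against 9.66% of all genes (3.64% higher and 6.02% lower). At an unadjusted p under 0.05 stood 5 of 8, namely Mpo, Elane, Prtn3, Ctsg and Ctsc, against 26.0% of all genes. DESeq2 called Elane and Prtn3, beside 16.4% of all genes, and limma voom called 0, beside 9.27%.

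With the clone as a block 4 of the 8 genes rose after washing, against 22.9% of all genes called (10.4% higher and 12.4% lower). Mpo rose with a log2 fold change of 5.71 ± 0.99 SE (edgeR adjusted p = 0.00643; without the block 0.0662). Elane rose by 2.81 ± 0.38 on the log2 scale (edgeR adjusted p = 0.00268; without the block 0.0608). On the same scale Prtn3 rose by 1.18 ± 0.3 (edgeR adjusted p = 0.0248, and 0.131 without the block), and Ctsg by 2.3 ± 0.43 (edgeR adjusted p = 0.00807, and 0.0868 without the block).

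Prss57, Ms4a3 and Ctsc had blocked log2 fold changes of -0.67, -0.36 and -0.47 after washing, and Serpinb1a one of 0.49, none of them past the threshold (edgeR adjusted p = 0.182, 0.563, 0.0811 and 0.146). Ms4a3 had the opposite sign in the unblocked fit (0.2, adjusted p = 0.939), and fell in the blocked fit that left out the washed library of clone 1 (-1.2, adjusted p = 0.0377). Leaving out that library kept Mpo, Elane, Prtn3 and Ctsg called with the block, at smaller values of 4, 2.22, 0.7 and 1.61. Of all genes 31.2% were called in that fit. Without clone 2 only Elane passed with the block, beside 3.49% of all genes. Without clone 4 Mpo, Elane and Ctsg did, beside 2.65%.

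**Figure D2:**
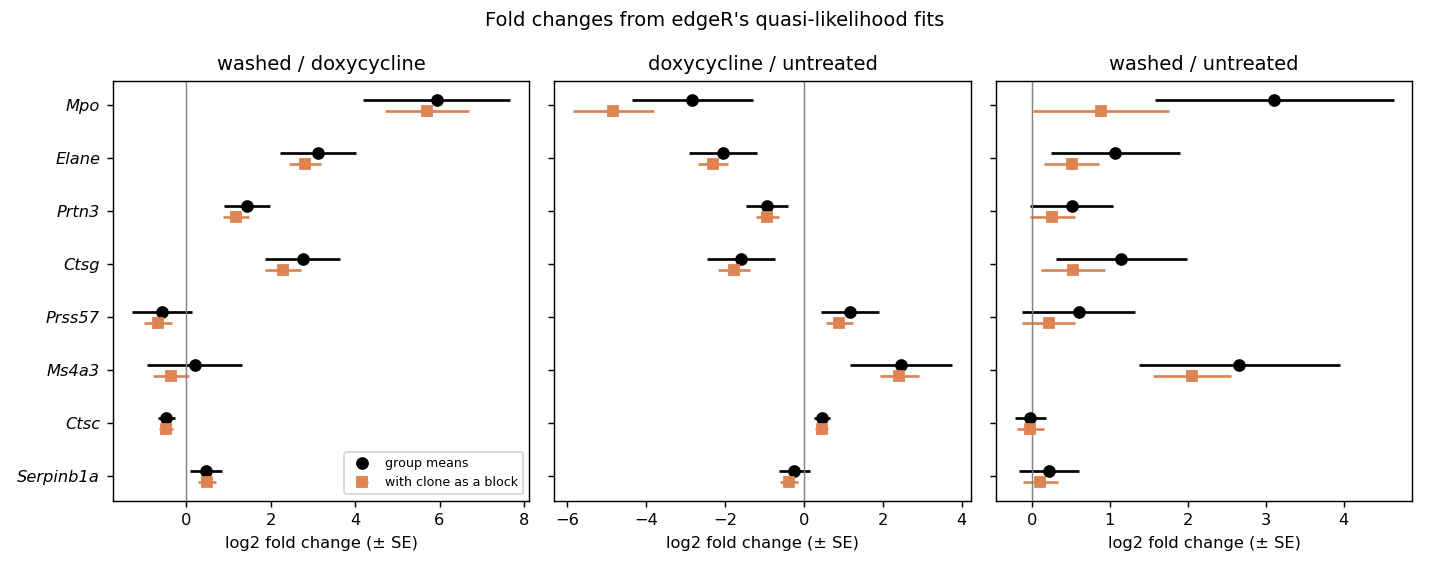
Log2 fold changes with their SE for the 8 genes in washed over doxycycline, doxycycline over untreated and washed over untreated cells, from edgeR without (black circles) and with (orange squares) clone as a block. Mpo is lowest in doxycycline over untreated (-2.82, and -4.82 with the block) and highest in washed over doxycycline (5.93 and 5.71), and the block shortens the error bars of Mpo, Elane, Prtn3 and Ctsg.

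The third comparison set washed cells against cells that were never treated. No gene among the 12004 passed edgeR's adjusted p of 0.05, and 0 of the 8 members did, with and without the block. At an unadjusted p under 0.05 without the block stood 38 of 12004 genes (0.317%) and 0 of the 8. DESeq2 and limma voom also called 0. Mpo had a log2 fold change of 3.11 ± 1.53 SE (edgeR adjusted p = 1), which was -0.3 without the washed library of clone 1. The washed level of Mpo was 20.8, 1.29 and 0.625 times the untreated level in clones 1, 2 and 4, so the clones did not share a direction. For 0 of the 8 genes were the groups free of overlap (1.31% of all genes, higher) or the washed level lower in 3 of 3 clones (8.89%). Ms4a3 alone was higher after washing in 3 of 3 clones, by 7.67, 2.19 and 2.12 times, as were 9.21% of all tested genes (log2 fold change 2.66 ± 1.29, edgeR adjusted p = 1). With the block its log2 fold change was 2.05 ± 0.5 SE (edgeR unadjusted p = 0.00321, adjusted p = 0.956). In that fit 98 of 12004 genes had an unadjusted p under 0.05.

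Ratios between members within a library do not depend on the scaling between libraries. The pairs were chosen after the values had been seen, and the ratios are given as a description with no test. Prss57 counts were 1.01, 2.92 and 0.92 times Elane counts in washed clones 1, 2 and 4, 15.3, 14.8 and 13.6 times in doxycycline, and 1.32, 2.3 and 1.41 times in untreated cells. The 3 doxycycline ratios lay close together, although Elane itself was at 19 CPM in doxycycline clone 1 and at 4.5 CPM in clone 2. Ctsc counts were 0.542, 5.14 and 2.34 times Elane counts in washed, 8, 24 and 24.5 times in doxycycline and 1.77, 3.33 and 3.05 times in untreated clones. In each clone the doxycycline ratio was the highest.

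Mpo and Ctsg, both high in washed clone 1, did not keep a fixed ratio. Mpo counts were 1.81, 0.548 and 0.454 times Ctsg counts in washed clones 1, 2 and 4, 0.269, 0.0408 and 0.0192 times in doxycycline, and 0.302, 0.367 and 0.667 times in untreated cells. Elane and Ctsg kept within a narrower range, with Elane at 0.214, 0.165 and 0.349 times Ctsg in washed, 0.184, 0.173 and 0.141 times in doxycycline and 0.243, 0.221 and 0.239 times in untreated clones.

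**Figure D3:**
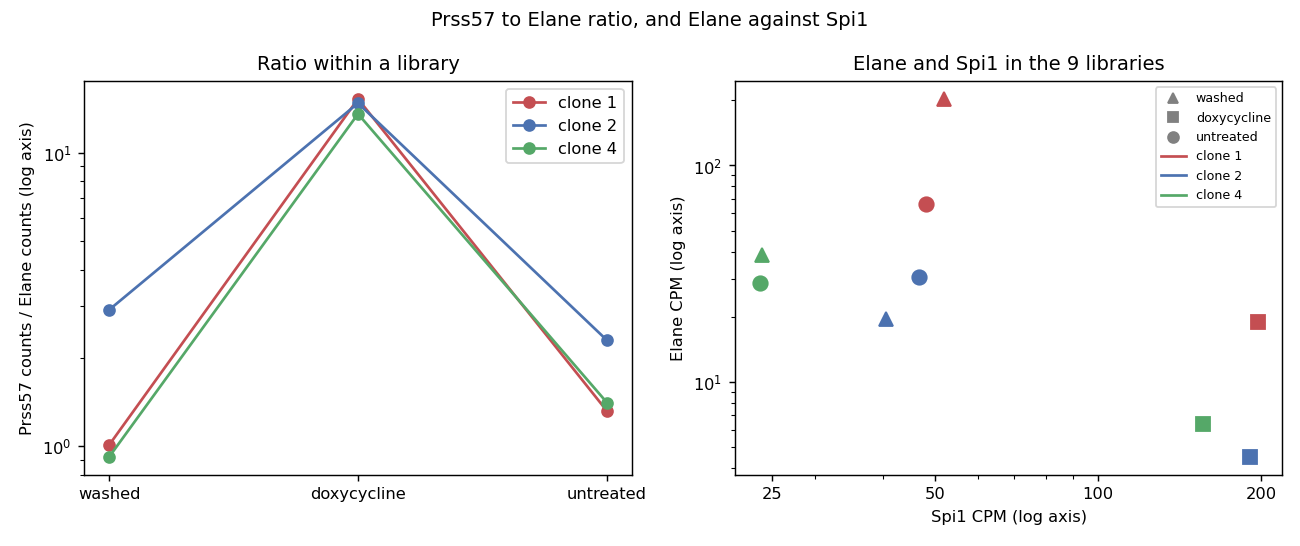
Left, Prss57 counts over Elane counts (log axis) in each library, 1 line per clone; the doxycycline ratios of 13.6 to 15.3 lie above all washed and untreated ratios, which reach at most 2.92. Right, Elane against Spi1 CPM (both log axes) in the 9 libraries, marked by condition and clone; the 3 doxycycline libraries sit at the lower right, and clone 1 is the highest Elane point of each condition.

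Across the 9 libraries, log2 CPM of Mpo, Elane, Prtn3 and Ctsg varied together, with Pearson's r from 0.9 (Mpo and Prtn3) to 0.98 (Ctsg with Elane and with Prtn3). These correlations are descriptions, since the libraries share clones and conditions. Prss57 correlated with Ms4a3 at 0.86 and with Ctsc at 0.71, but with Mpo at 0.21 and with Elane at 0.24. Without the washed library of clone 1, Prss57 correlated with Mpo at -0.17 and with Elane at -0.15, and with Ctsc at 0.83. Against Spi1, r was -0.64 for Mpo, -0.6 for Elane, -0.49 for Ctsg, -0.39 for Prtn3 and -0.33 for Serpinb1a. It was 0.82 for Ctsc, 0.6 for Prss57 and 0.47 for Ms4a3.

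The genes outside the 8 most like each of the 4 were taken by Pearson's r of log2 CPM over the 9 libraries. For Mpo they were Fech, the enzyme that puts iron into heme (r = 0.984), Pxmp2, a peroxisomal membrane protein (0.978), and Eif2s3x, a translation initiation factor subunit (0.976). For Elane they were Fech, Rttn and Afap1l1, each at 0.981. For Prtn3 they were Sec61b, a subunit of the channel that takes proteins into the endoplasmic reticulum (0.984), Tmem39a (0.98) and Lars, the leucyl-tRNA synthetase (0.98). For Ctsg they were Sec61b (0.997), Nars, the asparaginyl-tRNA synthetase (0.993), and Lars (0.989). The amplitude was smaller than in the members: Sec61b stood at 221, 97.5 and 90.8 CPM in washed, 88.1, 53.6 and 65.7 CPM in doxycycline and 145, 106 and 100.1 CPM in untreated clones 1, 2 and 4.

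Clone 1 differed from clones 2 and 4 for nearly all members. It was the highest clone in all 3 conditions for 7 of the 8, Ctsc being the exception, against 13.3% of all tested genes. Over the 3 conditions the geometric mean of Mpo was 158 CPM in clone 1 and 15.2 CPM in each of clones 2 and 4. Ms4a3 was at 10.7, 1.03 and 1.99 CPM, and Prss57 at 174, 64.4 and 49.9 CPM, in clones 1, 2 and 4. In the model with group and clone, edgeR's F test for clone called 0 of the 8 and 0% of all genes, with adjusted p from 0.0505 (Ms4a3) to 0.0625 (Serpinb1a) for the 7 and 0.398 for Ctsc. At an unadjusted p under 0.05 stood 7 of the 8, against 37.5% of all genes. Without the washed library of clone 1 the test called 5 of the 8 and 14.6% of all genes, and without the untreated library of clone 1 it called 7 and 29.8%.

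Washed clone 1 was the highest of the 9 libraries for 6 of the 8 members, against 24.1% of all tested genes. It exceeded every other library more than 2 times for 4 members, which held for 0.758% of all genes (91 of 12004). These 4 were Mpo at 20.8 times the next library, Ctsg at 3.48, Elane at 3.06 and Prtn3 at 2.13 times. Mpo was the 20th most counted entry of that library with 18692 counts, against rank 3170 and 4099 in washed clones 2 and 4. Counted from the largest, the log2 difference between clone 1 and the mean of the other clones ranked Mpo 2nd of 12004 genes in washed cells (4.91), 1st in doxycycline (4.55) and 1650th in untreated cells (0.38).

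Ms4a3 ranked 8th, 15th and 25th by the same difference in washed, doxycycline and untreated cells, and Elane 28th, 39th and 133rd. Clone 1 already stood apart for Mpo in doxycycline, where it had 27.7 CPM against 1.06 and 0.872 CPM in clones 2 and 4, and not in untreated cells. Whether the difference between hairpin states itself differed between clones was tested as an interaction, with washed and untreated cells as the hairpin-on state. It called 0 of the 8 and 0% of all genes by edgeR, and at an unadjusted p under 0.05 stood 0 of the 8 and 3.39% of all genes. Without the washed library of clone 1 it called 5 of the 8 and 20.4% of all genes, and without the untreated library of clone 1 it called 7 and 33.9%. In those fits the spread comes from the washed and untreated libraries of clones 2 and 4 alone.

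**Figure D4:**
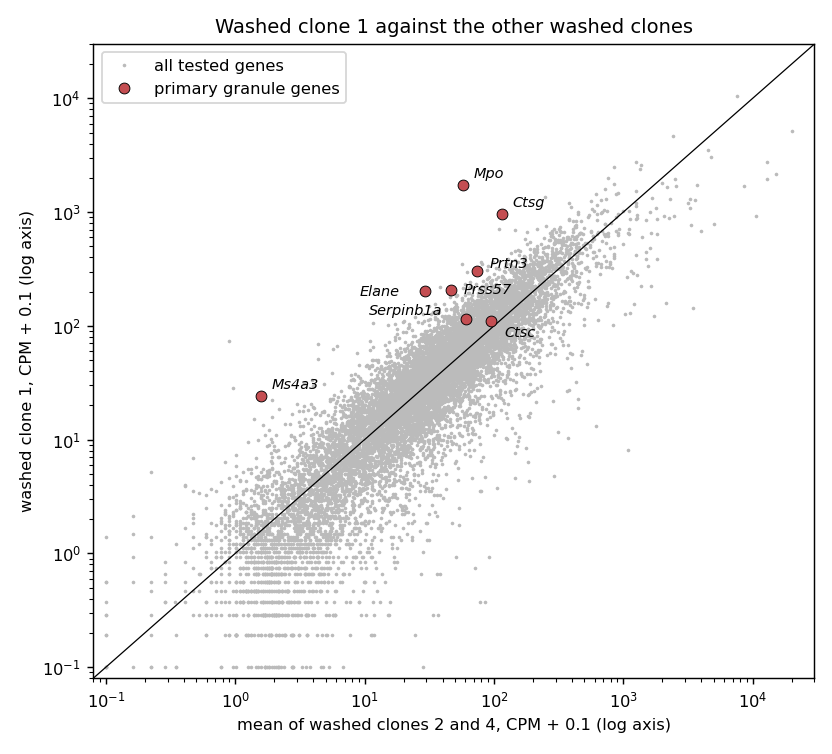
Washed clone 1 against the mean of washed clones 2 and 4 for all 12004 tested genes (grey) and the 8 primary granule genes (red), in CPM plus 0.1 on log axes, with the line of equal level. Mpo, Ctsg and Ms4a3 stand farthest above the line among the 8, and Ctsc lies near it.

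Other cell type markers moved with clone 1 and with doxycycline. The 9 mast cell and basophil markers (5 of them tested, Fcer1a with no count in any library) summed to 473, 1745 and 1407 CPM in washed clones 1, 2 and 4. Their sums were 156, 1258 and 553 CPM in doxycycline and 1646, 1687 and 1325 CPM in untreated cells. By this sum clone 1 was lowest in washed and doxycycline cells but not in untreated cells. The sum was mostly Cpa3, at 1631 of 1646 CPM in untreated clone 1. In untreated cells Mcpt8, Cma1, Tpsb2 and Prss34, the other tested markers, were each lowest in clone 1. In washed cells Cma1 and Tpsb2 were lowest in clone 4, as was Cma1 in doxycycline. The 7 lymphoid markers, with 1 tested and Cd4 and Ncr1 at 0 throughout, summed to 8.47, 211 and 142 CPM in washed clones, 8.47, 38.4 and 20.4 CPM in doxycycline and 83.5, 163 and 128 CPM untreated. The 7 macrophage markers, with 4 tested and C1qa at 0 throughout, ran from 14.3 to 102 CPM in washed, 27.8 to 184 CPM in doxycycline and 54.1 to 79.7 CPM in untreated cells. The 7 eosinophil markers, 6 of them tested, summed to 10941, 10271 and 8348 CPM in washed clones 1, 2 and 4, to 4928, 3723 and 3378 CPM in doxycycline and to 12440.4, 9661 and 8389.9 CPM in untreated cells. The 7 erythroid markers, 4 of them tested, summed to 8.74, 29.7 and 19.3 CPM in washed, 1.59, 8.86 and 7.17 CPM in doxycycline and 15.4, 24.2 and 17.7 CPM in untreated clones. Both sums were lower in every doxycycline library than in every untreated one, the direction of Mpo, Elane, Prtn3 and Ctsg. The eosinophil sum was mostly Epx, at 10912 of 12440.4 CPM in untreated clone 1. Of its 6 tested genes edgeR called 1, Epx, lower in doxycycline than untreated and 2 higher. The 2 were Siglecf (log2 fold change 5.32, edgeR adjusted p = 0.00941) and Il5ra (3.31, adjusted p = 0.0467), so these markers did not share a direction.

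The 7 mature neutrophil markers, 6 of them tested, summed to 64.5, 40.8 and 31.1 CPM in washed, 1537, 497 and 819 CPM in doxycycline and 64.2, 35.6 and 24.6 CPM in untreated clones. They were thus high where Mpo, Elane, Prtn3 and Ctsg were low. The part of these markers in the members' levels was not tested, and in bulk RNA fewer cells of a type and less RNA per cell cannot be told apart.

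The list of other granule contents also held eosinophil genes, and its only lower call in doxycycline was Epx, the eosinophil peroxidase. Of 19 tested, edgeR called 3 higher and 1 lower in doxycycline than untreated (6 and 1 with the block), with a median log2 fold change of 0.07 against 0 over all tested genes. Lyz2, the lysozyme of myeloid cells, stood at 717, 263 and 370.2 CPM in doxycycline clones 1, 2 and 4 and at 90.1, 59.8 and 49.4 CPM in untreated ones (edgeR adjusted p = 0.0039). Lyz1 (log2 fold change 2.77) and the lysosomal mannosidase Man2b1 (1.69) also rose. Epx, a relative of Mpo on the same chromosome, fell (-1.34, edgeR adjusted p = 0.0388).

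Epx and Mpo differed in washed clone 1. Epx stood at 10552, 7893 and 7324 CPM in washed clones 1, 2 and 4, at 4784, 2889.5 and 2654 CPM in doxycycline and at 10912, 7881 and 7434 CPM in untreated cells. Within each clone its washed and untreated values lay close together, whereas those of Mpo in clone 1 did not. Srgn, the proteoglycan core that holds granule proteases, stood at 889, 2594 and 1890.3 CPM in washed, 1013, 2185 and 1758 CPM in doxycycline and 1954, 2424 and 1824 CPM in untreated clones (doxycycline over untreated edgeR adjusted p = 0.657).

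Of 24 tested genes for processing, folding and sorting of granule proteins, 4 rose in doxycycline and 0 fell (7 and 1 with the block), with a median of 0.32. The 4 were Vamp8, a fusion protein of granule release (0.96), Grn, the progranulin gene (1.38), Nbeal2, needed for granule formation (1.11), and the sorting receptor Sort1 (0.86). Calr, a chaperone of myeloperoxidase, stood at 2469, 751 and 939.7 CPM in washed clones 1, 2 and 4, 1348, 762 and 829 CPM in doxycycline and 1443, 877 and 923 CPM untreated. Its highest library was washed clone 1, as for Mpo, but no gene of this list exceeded every other library more than 2 times there.

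Of 10 tested inhibitors of proteases 2 rose and 0 fell (3 and 2 with the block), with a median of 0.22. These were Slpi, an inhibitor of elastase and cathepsin G, at 1126 ± 307 CPM in doxycycline and 507 ± 64.4 CPM untreated (SD, n = 3; edgeR adjusted p = 0.031), and Serpinb2 (log2 fold change 2.76, adjusted p = 0.0339). After washing Slpi fell to 245, 358 and 445 CPM in clones 1, 2 and 4 (edgeR adjusted p = 0.00827). Among 5 tested relatives of the granule proteases, Cma1, a mast cell chymase, fell in doxycycline and rose after washing (log2 fold changes -4.05 and 4.64, edgeR adjusted p = 0.0252 and 0.0178). Mcpt8, a basophil protease 14386 bases from Ctsg, stood at 16.4, 85.5 and 17.5 CPM in washed, 6.62, 166 and 43.6 CPM in doxycycline and 11.4, 57.4 and 13 CPM in untreated clones, highest in clone 2 and not in clone 1.

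Many but not all of the genes listed for later granules were higher in doxycycline than in untreated cells. Of 15 tested, 9 rose in doxycycline and 0 fell (9 and 1 with the block, the 1 being Chil3 at a blocked log2 fold change of -2.76 and edgeR adjusted p = 0.0498), with a median log2 fold change of 1.65. The 9 were Lcn2, Ngp, Cd177, Olfm4, Padi4, Pglyrp1, Retnlg, Itgam and Cyba. Of all tested genes 6.57% rose and 4.35% fell. Ltf (log2 fold change 1.28), Camp (0.12), Hp (0.12), Cybb (-2.29) and Slc11a1 (-0.47) were not called, with edgeR adjusted p from 0.104 to 0.94. Olfm4, a glycoprotein of specific granules, stood at 1365, 151 and 345 CPM in washed clones 1, 2 and 4, 5596, 1962 and 2892 CPM in doxycycline and 515, 287 and 330.4 CPM in untreated cells. Clone 1 was its highest clone in each condition, as for Mpo, while doxycycline was its highest condition, unlike Mpo. After washing 8 of the 15 fell and 0 rose against doxycycline, beside 6.02% and 3.64% of all tested genes.

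Among the progenitor and promyelocyte genes Igsf6, Clec12a, Trem3 and Csf3r rose in doxycycline and the glutathione transferase Gstm1 fell, and the list had a median of 0.21. Nkg7, a granule membrane protein, was lower in doxycycline than untreated in clones 2 and 4 and not in clone 1, at 360.2, 82.7 and 77 CPM in washed, 191, 42.6 and 72 CPM in doxycycline and 167, 104 and 87.6 CPM in untreated clones, and did not pass (edgeR adjusted p = 0.864). Of 8 heme synthesis genes, 2 fell in doxycycline, Uros and Cpox (1 rose and 3 fell with the block), with a median of -0.31. Fech stood at 314, 126 and 149 CPM in washed, 102, 58.2 and 62.1 CPM in doxycycline and 164, 127 and 153 CPM in untreated clones. It passed edgeR's test after washing (log2 fold change 1.4, adjusted p = 0.0415) and in doxycycline over untreated cells only with the block (adjusted p = 0.00928, and 0.111 without it).

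Of 15 tested transcription factors known for control of these genes, Spi1 alone rose in doxycycline and 0 fell (3 and 1 with the block), with a median of 0.25. Cebpa, a factor of granulocyte commitment, stood at 109, 17.6 and 22.3 CPM in washed clones 1, 2 and 4, 93.3, 15.2 and 32.8 CPM in doxycycline and 43.1, 26.2 and 22.6 CPM in untreated cells. It was highest in clone 1 in every condition, as were 7 of the 8 members. Myb stood at 708, 217 and 365 CPM in washed, 385, 249 and 406 CPM in doxycycline and 315, 241 and 371 CPM in untreated clones, with its highest value in washed clone 1. Gfi1, a repressor needed for granulocyte formation, stood at 193, 100.4 and 115 CPM in washed, 154, 70 and 118 CPM in doxycycline and 148, 112 and 109 CPM in untreated clones (doxycycline over untreated -0.11, edgeR adjusted p = 0.866). Cebpe, a factor of late granulocyte stages, rose in doxycycline only with the block (log2 fold change 0.83 without it, edgeR adjusted p = 0.127, and 0.0113 with the block).

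**Figure D5:**
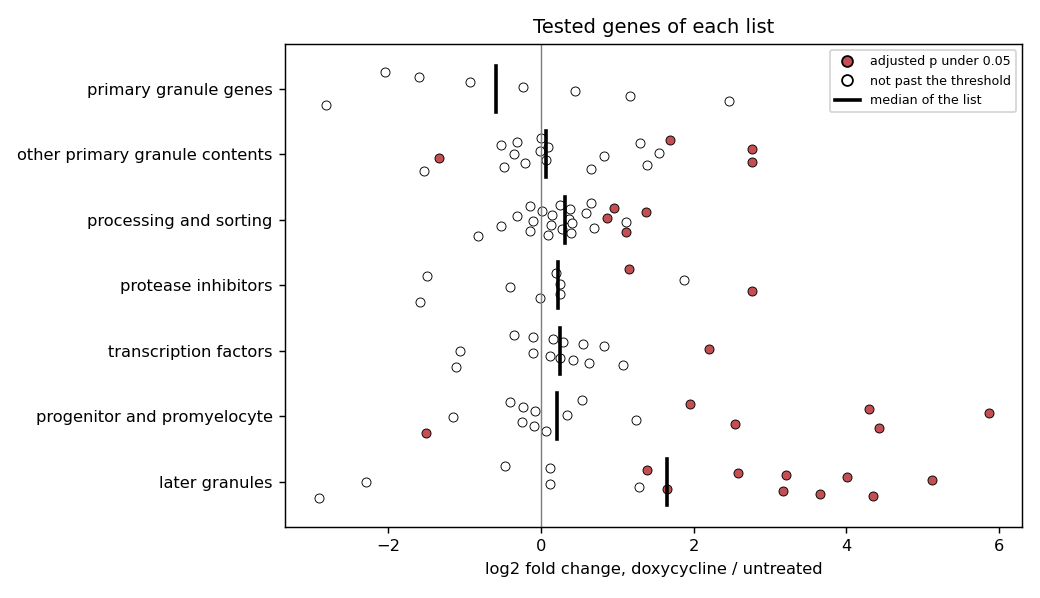
Log2 fold change of doxycycline over untreated cells for each tested gene of 7 lists, with genes past edgeR's adjusted p of 0.05 in red and each list's median as a bar. The primary granule genes run from -2.82 to 2.46 with none past the threshold, and later granule genes have the highest median (1.65).

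The members' neighbours on the chromosome were called about as often as genes at large. Within 100 kb of a member lie 26 other tested genes. Of these 0 rose in doxycycline over untreated cells and 2 fell, Epx near Mpo and Plppr3 beside Prtn3 (-0.93, edgeR adjusted p = 0.0371), which is 7.69% of them against 10.9% of all tested genes. With the block 3 rose (Med16, R3hdm4 and Grin3b) and 3 fell (Epx, Plppr3 and Wdr18), 23.1% against 24.8% of all. Plppr3 overlaps Prtn3 over 159 exon bases on the opposite strand. Among genes close to Elane, Med16, 6490 bases away, averaged 69.7 CPM in washed, 94.6 CPM in doxycycline and 62.6 CPM in untreated cells, and Arid3a 182, 177 and 175 CPM. None of the 26 exceeded every other library more than 2 times in washed clone 1. Prss57 and Prtn3 lie 84983 bases apart and had opposite signs in doxycycline.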

How the data were processed

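The authors deposited 1 file of raw read counts per library, per Entrez gene and with no normalization, per the file headers. The submitters' processing notes name the mm10 build and featureCounts, with limma 3.22.0, edgeR 3.8.2 and CASAVA 1.8.2; which aligner and strand setting they used is not given in the sources used here. Symbols, coordinates and promoters came from RefSeq tables of GRCm38.p6, which matched 25275 of 27179 entries, and exon overlaps from GENCODE M21 and BLAST 2.17.0.

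Genes were filtered with filterByExpr and scaled by TMM, and edgeR 4.0.16 in R 4.3.3 fitted quasi-likelihood group means to all 9 libraries (6 residual degrees of freedom), with Benjamini-Hochberg adjustment over 12004 genes at 0.05. SE is the size of the log2 fold change divided by the root of its F statistic. Log2 CPM in correlations used a prior count of 2. The clone tests used models with group and clone, and with clone, hairpin state and their interaction. The scripts were tested on simulated data.

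Deviations from the group means correlated at 0.29 to 0.68 between libraries of the same clone in all 9 pairs, against -0.69 to 0.32 between clones, and a clone is the same cell line in each condition, so clone pairs the libraries. Clone as a block was the alternative fit. The others were RLE factors, library size alone, no filter, 5 CPM in 3 libraries, DESeq2 1.42.0, limma 3.58.1 with voom, the 2 groups alone, each clone left out, and clone 1 without its washed or untreated library. Blocked fits with a clone left out or with library size were added after the data were seen. The closest pair of libraries, untreated and washed clone 4, differed beyond sampling noise (chi-square of 3.47 per degree of freedom). The p-values rest on how clones of a single line differ.

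The 8 members and all gene lists were chosen with earlier results of these data known. Named genes are the members, Spi1, in each list and comparison up to 4 genes with the smallest p and any list gene past the threshold, all genes of lists with at most 5 tested, the 3 most correlated genes for each of Mpo, Elane, Prtn3 and Ctsg, and neighbours within 100 kb. Other genes (Calr, Srgn, Cebpa, Myb, Gfi1, Nkg7, Ptprc and Laptm5) were named for their known role, after their values were seen. Ltf, Camp, Hp, Cybb and Slc11a1 were named as uncalled genes of the later granule list. Figures were drawn with matplotlib 3.10.9. Some results are not reported here.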

Additional observations from a re-analysis of the deposited data

How the results depend on the processing

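With clone as the replicate block, 4 of the 8 genes passed in doxycycline over untreated cells and 4 in washed over doxycycline cells, where 0 passed without it. With the block and library size alone the counts were 4 and 4, beside 18.2% and 14.1% of all genes. With the block and without washed clone 1 they were 6 and 5, beside 38.6% and 31.2% of all genes. Without the block, washed clone 1 left out gave 2 (Elane and Prtn3) for doxycycline over untreated, beside 18.4%. DESeq2 gave 1 and 2, beside 17.8% and 16.4%. The 2 groups alone gave 1 for doxycycline over untreated, beside 17.4%, and no filter gave 2 for washed over doxycycline, beside 5.66%. Leaving out each clone gave 0 to 4 and 0 to 3, beside 0% to 7.96% and 0.0331% to 8.8% of all genes. With the block it gave 0 to 6 and 1 to 5, beside 2.98% to 33.9% and 2.65% to 35.6%. The clone test called 1 with RLE factors, 6 with library size alone and 7 without a filter, beside 0.616%, 9.5% and 9.46% of all genes. It called 5 without washed clone 1 and 7 without untreated clone 1, beside 14.6% and 29.8%. With each clone left out it called 0 to 1, beside 0% to 25.3%. The interaction called 5 without washed clone 1 and 7 without untreated clone 1, beside 20.4% and 33.9%. The causes were not tested.

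Washed over doxycycline, Ms4a3 (0.2) turned to -2.41 without washed clone 1, -0.36 with the block, -1.2 with both, -0.51 with voom, -1.25 to -1.19 without clone 1, -0.23 with the block and without clone 2, and -0.36 with the block and library size. Serpinb1a turned to 0.04 in doxycycline over untreated with library size alone. Ms4a3 reached 0.46 at most without 1 clone. Washed over untreated, no value passed, and without washed clone 1 Mpo turned to -0.3, Elane to -0.52, Prtn3 to -0.51, Ctsg to -0.63, Prss57 to -0.51 and Serpinb1a to -0.15. Leaving that library out of the blocked fit gave -0.23 for Prtn3, -0.1 for Ctsg and -0.05 for Prss57. Without clone 1, unblocked and blocked, the values were -0.18 and -0.16 for Mpo, -0.02 and -0.09 for Elane, -0.24 and -0.23 for Prtn3, -0.17 and -0.17 for Ctsg, -0.25 and -0.24 for Prss57 and -0.08 and -0.12 for Serpinb1a. The highest unblocked values without 1 clone were 3.75, 1.35, 0.77, 1.43, 0.92 and 0.41 in that order. Ctsc turned to 0.21 with library size, 0.18 with the block and library size, 0.09 without untreated clone 1 and 0.01 without clone 1, with or without the block, and was lowest without clone 4 (-0.04). In all, 1, 8 and 26 member values changed sign in doxycycline over untreated, washed over doxycycline and washed over untreated, and 114, 108 and 118 kept both direction and call. Library size alone moved the median of all genes from 0 to 0.23 in doxycycline over untreated and from 0.02 to 0.22 in washed over untreated cells.

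Over all 12004 genes, doxycycline over untreated had 1311 calls, and 0 without clone 4, 159 without clone 2, 347 without untreated clone 1, 2258 without washed clone 1, 2976 with the block, 2138 by DESeq2 and 2026 with the 2 groups alone; washed over doxycycline had 1160, and 4, 70, 717, 1814, 2744, 1967 and 324 in the same order, and 648 with library size. Higher calls made up 789 of 1311, and 796 of 1053 with library size alone. The 8 and 9 counts of Mpo in doxycycline clones 2 and 4 and the 4 to 17 counts of Ms4a3 in untreated cells limit the precision of their fold changes.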
